A study of Mus musculus with 3 samples.

Results

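The genes described here are those of the mouse mitochondrial genome, the small circular chromosome carried inside mitochondria. They were chosen by their symbols, which start with mt-, and number 37 of the 55536 gene entries quantified. They comprise 13 protein genes, 2 ribosomal RNA genes and 22 transfer RNA genes. RNA came from C57BL/6J macrophages grown from bone marrow. A stimulus had been added at 100 ng/mL, with RNA taken after 480 minutes. It is lipid A in the sample descriptions but lipoprotein A in the treatment fields. All 3 libraries were polyadenylated RNA of this 1 stimulated group, here called replicates 1, 2 and 3. The sample descriptions number them as biological replicates 1, 2 and 3, each with technical replicate number 1. They came from separate biosamples that carry the same donor label, and nothing in the labels says that these were separate mice. An SD over the 3 libraries therefore measures the spread between these samples, which may not include differences between mice. No untreated macrophages were analysed here, so all values are levels after stimulation. Each library was quantified in 2 ways from the same reads. The gene tables gave expected counts, TPM (transcript abundance per unit length, scaled to 1 total in every library) and a posterior standard deviation of each count, and a second quantification gave estimated counts and TPM.

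The mitochondrial genome is transcribed from both strands as long precursors, from which the transfer RNAs are cut out and so release the ribosomal and messenger RNAs between them. Most mitochondrial messenger RNAs then receive short poly(A) tails, which in some genes complete the stop codon. The protein genes encode core subunits of respiratory complexes I, III and IV and of complex V, the ATP synthase, which also contain nuclear-encoded subunits. Stretches of mitochondrial DNA have also been copied into the nuclear chromosomes during evolution, and annotation lists such stretches as pseudogenes.

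Gene entries held 26589042, 34344922 and 48356527 expected counts in replicates 1, 2 and 3, and 35065734, 37493128 and 53748655 estimated counts in the second quantification. All 8 macrophage markers were at or above 1 TPM in every library, with a summed level of 16752 to 21243 TPM. The summed level of 5 neutrophil markers was 22.9 TPM in replicate 1, 419.6 TPM in replicate 2 and 21.4 TPM in replicate 3. The 3 T cell markers summed to at most 0.54 TPM, the 3 erythroid markers to at most 0.52 TPM and the 3 B cell markers to at most 1.47 TPM. Of these, Cd3d, Cd3g and Alas2 were at 0 in every library. The nuclear ribosomal RNA gene CT010467.1 took 2.78%, 1.83% and 6.66% of expected counts in replicates 1, 2 and 3.

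The 37 genes held 1.43% of expected counts in replicate 1, 1.51% in replicate 2 and 1.297% in replicate 3, a mean of 1.41% ± 0.105 (SD, n = 3). The 95% Wilson interval of the share was 1.42 to 1.43% in replicate 1, so counting error was smaller than the spread between libraries. Such intervals cover counting error only. Protein genes made up 1.19% ± 0.114 of all expected counts and the 2 ribosomal RNA genes 0.218% ± 0.0356. In these bulk samples, less RNA per cell and fewer cells that carry it cannot be told apart. The share of TPM was larger, at 4.51% ± 0.663, and the share of the second quantification's estimated counts was 1.57% ± 0.147 (SD, n = 3 each). The nuclear copies described next held a further 0.573%, 0.757% and 0.603% of expected counts, and members and copies together held 2.05% ± 0.187.

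A search of the mitochondrial transcripts against 141730 nuclear transcripts, at 95% identity or more over at least 100 bases, found 11 annotated nuclear pseudogenes matching 9 of the protein genes. The transfer RNA genes are shorter than this minimum. Of these, 7 lie in 1 stretch of chromosome 1 (mm10, chr1:24611535-24616197, minus strand) in the order of the mitochondrial genome. They copy the end of mt-Co1 (Gm29216) and then mt-Co2 (Gm28661), mt-Atp6 (Gm10925), mt-Co3 (Gm28437), mt-Nd3 (Gm28438), mt-Nd4l (Gm10222) and the first 876 bases of mt-Nd4 (Gm28439). Gm28661, Gm10925, Gm28437 and Gm10222 were identical to their mitochondrial genes over their whole length, and so was Gm28439 to the part of mt-Nd4 it covers. Of the other copies, Gm13339, Gm13340 and Gm13341 lie on chromosome 2 and match mt-Nd2, mt-Co1 and mt-Co2 at 96.7%, 97.6% and 95.9% identity. Gm4076 lies on chromosome 13 and matches mt-Nd5 at 95.2% identity.

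Gm28661, Gm10925, Gm28437 and Gm10222 differ from their genes at the 3′ end alone, where the pseudogene annotation stops short. The 3′ ends are shown because they are the sequence in which these genes and copies can differ. Capitals mark the bases that the annotated copy lacks, all within the stop codon. The mitochondrial stretches lie at chrM:7649-7696, chrM:8560-8607, chrM:9343-9390 and chrM:10126-10173 on the plus strand of mm10, and the sequences are those of GENCODE M21 transcripts, 5′ to 3′.
mt-Co2: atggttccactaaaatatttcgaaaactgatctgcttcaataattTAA
Gm28661: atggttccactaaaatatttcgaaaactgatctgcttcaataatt
mt-Atp6: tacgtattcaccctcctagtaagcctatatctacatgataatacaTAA
Gm10925: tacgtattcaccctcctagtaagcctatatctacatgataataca
mt-Co3: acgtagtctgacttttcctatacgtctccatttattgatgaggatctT
Gm28437: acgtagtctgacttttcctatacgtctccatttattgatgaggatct
mt-Nd4l: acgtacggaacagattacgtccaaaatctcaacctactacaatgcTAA
Gm10222: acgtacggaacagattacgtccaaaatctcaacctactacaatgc

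Gm28438 and Gm29216, also on chromosome 1, differ from their genes at 1 base each within the aligned part. Counted from 1 at the 5′ end of the mitochondrial gene, the substitution was T3C between mt-Nd3 and Gm28438, at position 9461 of the mitochondrial genome. Between mt-Co1 and Gm29216 it was A1066T, at position 6393. Capitals mark these bases in the stretches at chrM:9459-9495 and chrM:6390-6427 and in their copies.
mt-Nd3: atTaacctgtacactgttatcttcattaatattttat
Gm28438: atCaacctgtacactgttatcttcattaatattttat
mt-Co1: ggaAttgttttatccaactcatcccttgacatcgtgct
Gm29216: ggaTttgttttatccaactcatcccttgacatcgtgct

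To measure how much of each gene can be told apart by short sequence, every window of 31 bases was looked up in the nuclear transcripts. All windows of mt-Co2 occurred there, as did 99.9% of mt-Co3, 99.5% of mt-Atp6, 98.9% of mt-Nd4l and 98.1% of mt-Nd3. The shares were 63.9% for mt-Co1 and 62.8% for mt-Nd4. They were 16.8% for mt-Nd5 and 13.5% for mt-Nd2, and under 8% for mt-Atp8, mt-Nd6 and mt-Cytb. No window of mt-Nd1 or mt-Rnr1 occurred in a nuclear transcript, and 2.71% of those of mt-Rnr2 did.

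Complex IV, cytochrome c oxidase, passes electrons to oxygen and has 3 mitochondrial subunits that form its catalytic core. mt-Co1, the subunit that holds the site of oxygen reduction (ENSMUSG00000064351.1, chrM:5328-6872, plus strand), had 190633, 231552 and 295249 expected counts in replicates 1, 2 and 3. Its nuclear copy Gm29216 had 19746, 16654 and 21086. The member thus took 90.6%, 93.3% and 93.3% of the counts of the gene and its copies, and the libraries were close to each other. In the second quantification the shares on mt-Co1 were 87.5%, 97.6% and 97.9%. Its level was 7885 ± 619.8 TPM in the gene tables and 6587 ± 844 TPM in the second quantification (SD, n = 3 each).

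mt-Co2, the subunit that accepts electrons from cytochrome c (ENSMUSG00000064354.1, chrM:7013-7696, plus strand), had 6461, 548 and 432 expected counts in replicates 1, 2 and 3. Gm28661 had 54146, 77121 and 94790.2. The member held 10.7%, 0.706% and 0.453% of the summed counts, so replicate 1 stood well above the other libraries. In the second quantification mt-Co2 had 20328, 2272 and 3336 estimated counts, or 27.6%, 2.86% and 3.42% of the sum. Replicate 1 was again highest, and most counts again lay on the copy. The sum of gene and copies was 60619, 77670.0 and 95228 expected counts, against 73560.0, 79415 and 97404 estimated counts.

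mt-Co3, a core subunit without a redox centre (ENSMUSG00000064358.1, chrM:8607-9390, plus strand), had 2489, 3.58 and 556 expected counts in replicates 1, 2 and 3. Gm28437 had 39752, 97237 and 96877. The member was lowest in replicate 2, where its deposited level was 0.31 TPM, against 273 TPM in replicate 1 and 34.8 TPM in replicate 3. The second quantification gave mt-Co3 35745, 26460 and 22737 estimated counts, which were 69.5%, 26.5% and 22.7% of the sum. The posterior mean counts deposited beside the expected counts were also far from them, at 15350.3, 30053 and 29718. By that measure mt-Co3 held 36.3%, 30.9% and 30.5% of the pair, and mt-Co2 held 15.5%, 3.88% and 4.34% of the sum with its copies.

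**Figure D1:**
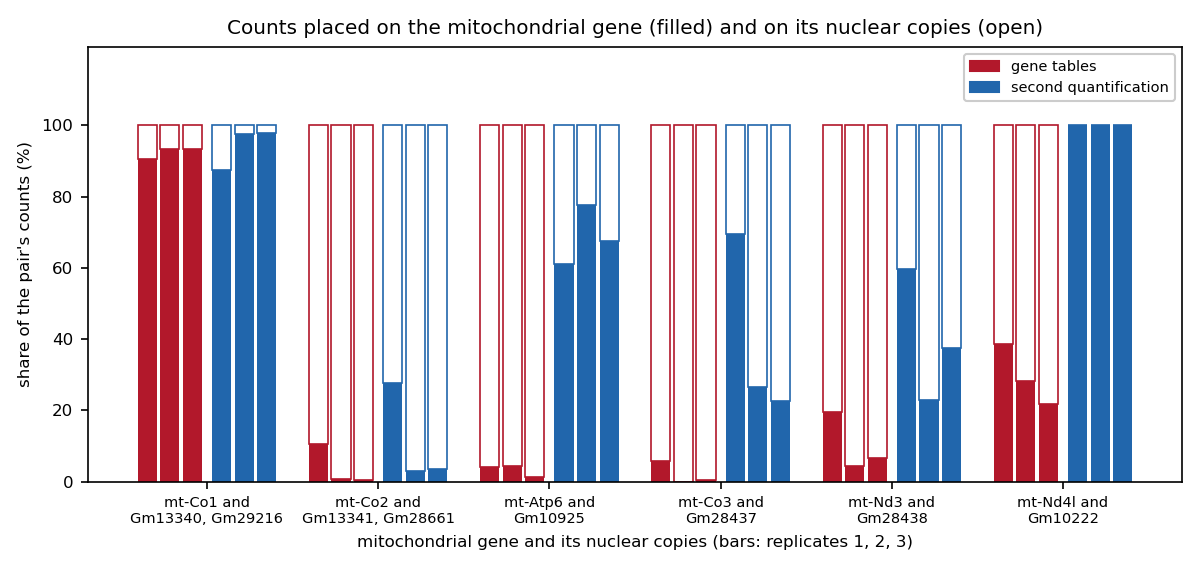
Share of the counts of a mitochondrial gene and its nuclear copies that each quantification placed on the gene (filled) and on the copies (open), in percent. Each group of bars shows replicates 1, 2 and 3 in the gene tables and then in the second quantification. For mt-Co2 the filled part is at most 27.6%, for mt-Co3 it spans 0.00368% to 69.5%, and for mt-Nd4l it is 100% in every library of the second quantification.

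Complex V, the ATP synthase, has 2 mitochondrial subunits in its membrane part. mt-Atp6, the subunit of the proton channel (ENSMUSG00000064357.1, chrM:7927-8607, plus strand), had 1569, 2554 and 915 expected counts in replicates 1, 2 and 3. Gm10925 had 35498, 56529.8 and 68984. The member held 4.23%, 4.32% and 1.31% of the pair in the gene tables, and 61.0%, 77.7% and 67.5% in the second quantification. The share was higher in the second quantification in all 3 libraries. By posterior mean counts mt-Atp6 held 9.68%, 9.59% and 6.12% of the pair. The sum of the pair was 37067, 59084 and 69899 expected counts, against 50564, 62238 and 73175 estimated counts.

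mt-Atp8, a short subunit of the stator (ENSMUSG00000064356.3, chrM:7766-7969, plus strand), has no nuclear copy by the search rule and overlaps the start of mt-Atp6 by 43 bases. Both proteins are read in different frames from 1 messenger RNA. The end of mt-Atp8 (chrM:7912-7969) and the start of mt-Atp6 (chrM:7927-7984) are shown because reads in the overlap, in capitals, can come from either reading frame's annotation.
mt-Atp8: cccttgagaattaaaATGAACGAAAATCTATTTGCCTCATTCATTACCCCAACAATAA
mt-Atp6: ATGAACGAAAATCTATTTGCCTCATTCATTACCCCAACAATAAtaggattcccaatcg

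mt-Atp8 had 15871, 28549.7 and 25568 TPM in the gene tables, ranking 4, 2 and 3 among all gene entries in replicates 1, 2 and 3. It had 4075, 6036 and 5461 TPM in the second quantification. The counts were close, at 4851, 6922 and 10000.0 expected counts against 6046, 7317 and 10496 estimated counts. TPM is a count divided by an effective length, the number of positions at which a fragment could start. That length was 17.6, 10.3 and 12.2 bases for mt-Atp8 in the gene tables, where the annotated gene has 204 bases. As counts scaled to the library total (CPM) per 1000 annotated bases, mt-Atp8 stood at 894, 988 and 1014 in the gene tables. On the same scale mt-Atp6 summed with its copy stood at 2047, 2526 and 2123. Summed with its copy, mt-Atp6 had 5052, 6359 and 5497 TPM, so with the copy summed the order was reversed between these scales. Without the copy, mt-Atp6 stood at 86.6, 109 and 27.8 CPM per 1000 annotated bases, and mt-Atp8 was higher on both scales.

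On TPM, mt-Atp8 exceeded mt-Atp6 by 7.13 ± 1.19 on the log2(TPM + 0.1) scale in the gene tables (SD, n = 3). A difference counted as apart when 3 of 3 libraries had the same sign and the mean exceeded 2 SD, and this one did. With mt-Atp6 summed with its copy the difference was 2.01 ± 0.31, and in the second quantification it was 0.77 ± 0.22, both apart. With copies summed in the second quantification it was 0.23 ± 0.19, which was not apart.

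Complex I, the NADH dehydrogenase, holds 7 mitochondrial subunits that form its proton-pumping membrane arm. mt-Nd3 (ENSMUSG00000064360.1, chrM:9459-9806, plus strand) had 388, 443 and 457 expected counts in replicates 1, 2 and 3. Gm28438 had 1584, 9560.1 and 6426, so that the member held 19.7%, 4.43% and 6.64% of the pair. In the second quantification mt-Nd3 held 59.8%, 22.9% and 37.5% of it, and in both quantifications replicate 1 had the highest share and replicate 2 the lowest. The pair summed to 1972, 10003 and 6883 expected counts, against 2402, 10242 and 7071 estimated counts.

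mt-Nd4l and mt-Nd4 overlap by 7 bases and are read from 1 messenger RNA, shown in capitals at chrM:10144-10173 and chrM:10167-10196.
mt-Nd4l: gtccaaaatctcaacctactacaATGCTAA
mt-Nd4: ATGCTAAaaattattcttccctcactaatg

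mt-Nd4l (ENSMUSG00000065947.3, chrM:9877-10173, plus strand) had 997, 1159 and 886 expected counts in replicates 1, 2 and 3. Gm10222 had 1577, 2959 and 3193, so the member held 38.7%, 28.1% and 21.7% of the pair. The second quantification placed all 3482, 5008 and 4908 estimated counts on mt-Nd4l and none on Gm10222, although the 2 sequences differ only in the stop codon. For mt-Nd4 (ENSMUSG00000064363.1, chrM:10167-11544, plus strand) the 2 quantifications placed counts alike. It had 29416, 38903 and 39429 expected counts, and its copy Gm28439 had no counts in any library in either quantification. Gm28439 aligns to 876 of the 1378 bases of mt-Nd4. For mt-Co1, Gm29216 aligns to 483 of 1545 bases and did hold counts, while Gm13340 aligns to all 1545 at lower identity.

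The direction of mt-Nd4l against mt-Nd4 depended on the quantification. On the log2(TPM + 0.1) scale mt-Nd4l was lower by the gene tables, with a difference of -0.91 ± 0.26 (SD, n = 3). With nuclear copies summed it was higher, with 0.89 ± 0.32, and in the second quantification it was higher, with 0.33 ± 0.16. All of these were apart. As CPM per 1000 annotated bases, with copies summed, mt-Nd4l stood at 326, 404 and 284 and mt-Nd4 at 803, 822 and 592, the order of the gene tables.

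The other complex I genes had no nuclear copy by the search rule or a copy with at most 1.28 counts in a library. mt-Nd1 (ENSMUSG00000064341.1, chrM:2751-3707, plus strand) had 1599, 2378 and 1706 TPM in replicates 1, 2 and 3, and mt-Nd2 (ENSMUSG00000064345.1, chrM:3914-4951, plus strand) had 641, 1183 and 742 TPM. Both were highest in replicate 2. mt-Nd5 (ENSMUSG00000064367.1, chrM:11742-13565, plus strand) stood at 1027, 1194 and 958 TPM. Its copy Gm4076 held 1.28 estimated counts in replicate 1 and none elsewhere. mt-Nd6 (ENSMUSG00000064368.1, chrM:13552-14070), the protein gene on the minus strand, stood at 2333, 2292 and 2002 TPM. It overlaps mt-Nd5 by 14 bases, and whether counting used the strand is not given in the sources used here, so reads of mt-Nd6 and of the opposite strand cannot be told apart.

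mt-Nd6 exceeded the median of the 12 plus-strand protein genes by 1.16 ± 0.19 on the log2(TPM + 0.1) scale in the gene tables and by 0.48 ± 0.18 in the second quantification (SD, n = 3 each), and both were apart. With nuclear copies summed, the differences were -0.27 ± 0.50 in the gene tables and 0.22 ± 0.42 in the second quantification, neither apart. As CPM per 1000 annotated bases, without summing, the difference was 0.48 in the gene tables and was not apart. The cause of these changes was not tested. In base composition mt-Nd6 stood apart from the other protein genes, with 28.1% G and 5.97% C, where the 12 plus-strand genes had 5.88 to 16.1% G and 22.1 to 29.97% C. Complex III, which passes electrons to cytochrome c, has the single mitochondrial subunit mt-Cytb (ENSMUSG00000064370.1, chrM:14145-15288, plus strand). It stood at 1904, 1861 and 1721 TPM, close to each other across libraries.

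**Figure D2:**
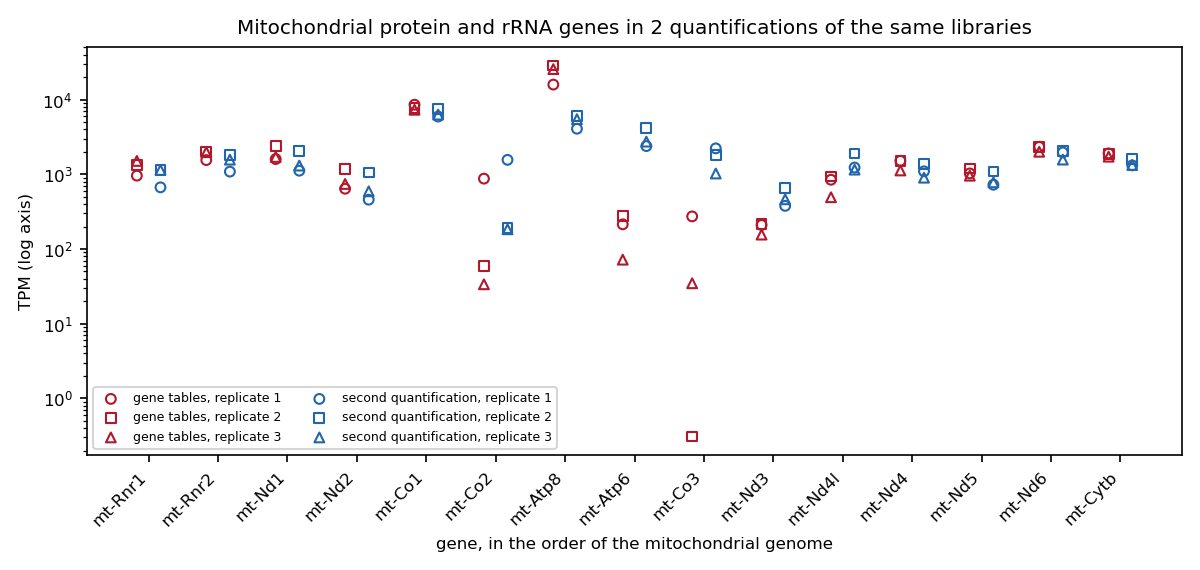
TPM on a log axis for the 13 protein and 2 ribosomal RNA genes in genome order, in the gene tables and in the second quantification, with 1 symbol for each replicate. The libraries lie close together for mt-Co1 and mt-Cytb, and far apart for mt-Co2 and mt-Co3, whose lowest gene-table value is 0.31 TPM. mt-Atp8 is at 15871 TPM or more in the gene tables and at most 6036 TPM in the second quantification.

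Of the 13 protein genes, 10 have a length that is a multiple of 3. The others, mt-Co3, mt-Nd4 and mt-Cytb, end in a single T, which in mammalian mitochondria poly(A) addition extends to a stop codon. An ATG opens 9 of the 13, while mt-Nd1 opens with GTG, mt-Nd2 with ATA, mt-Nd3 with ATT and mt-Nd5 with ATC, all used as start codons in mouse mitochondria.

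The 2 ribosomal RNA genes encode the RNAs of the small and large subunits of the mitochondrial ribosome. Their TPM was higher in the gene tables than in the second quantification, by less than 1.5-fold in every library. mt-Rnr1 (ENSMUSG00000064337.1, chrM:70-1024) had 959, 1326 and 1509.5 TPM in replicates 1, 2 and 3 of the gene tables. The second quantification gave it 669, 1131 and 1142 TPM. mt-Rnr2 (ENSMUSG00000064339.1, chrM:1094-2675) stood at 1549, 2025 and 1977 TPM, against 1086, 1813 and 1570 TPM in the second quantification. Both were lowest in replicate 1. mt-Rnr2 was higher than mt-Rnr1 by 0.56 ± 0.16 on the log2(TPM + 0.1) scale in the gene tables and by 0.61 ± 0.13 in the second quantification (SD, n = 3 each), and both were apart. Libraries were made from polyadenylated RNA, so these values are levels in that fraction and not of all ribosomal RNA.

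The 22 transfer RNA genes, 59 to 75 bases long, had an effective length of 0 and no counts in the gene tables of all 3 libraries. For them the gene tables hold no measurement. The labelled size range, 250 to 400, exceeds the length of each of these genes. The second quantification gave them effective lengths of 17.5 to 21.8 bases and 834, 1124 and 1334 estimated counts in replicates 1, 2 and 3, or 0.00262% ± 0.000332 of all estimated counts (SD, n = 3).

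These counts lay almost wholly on genes of the minus strand. The 8 minus-strand genes held 816, 1120.0 and 1330.0 counts in replicates 1, 2 and 3, which were 97.8%, 99.6% and 99.7% of the transfer RNA counts. The 14 plus-strand genes held 18, 4 and 4. All 8 minus-strand genes had counts in every library, while 3 of the 14 plus-strand genes did and 8 had none in any. The proline transfer RNA gene mt-Tp, which lies on the minus strand next to the threonine gene mt-Tt on the plus strand, had 535, 1059 and 1258 counts. That was 64.1%, 94.2% and 94.3% of all transfer RNA counts, and mt-Tt had none in any library. Without mt-Tp, minus-strand genes held 281, 61 and 72 counts in replicates 1, 2 and 3, and plus-strand genes 18, 4 and 4.

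The neighbours mt-Tp (chrM:15356-15422, minus strand) and mt-Tt (chrM:15289-15355, plus strand) are printed because they are the highest of the transfer RNA genes and the adjoining gene without counts. mt-Tc, the cysteine gene (chrM:5192-5257, minus strand), is the next highest in replicate 1.
mt-Tp: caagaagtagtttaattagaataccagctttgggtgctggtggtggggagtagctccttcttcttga
mt-Tt: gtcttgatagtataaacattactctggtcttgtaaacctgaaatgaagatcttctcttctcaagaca
mt-Tc: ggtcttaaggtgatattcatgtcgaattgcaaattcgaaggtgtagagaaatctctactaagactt

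The 7 other minus-strand genes had their highest count in replicate 1, mt-Ty jointly with replicate 3. mt-Tc had 117 estimated counts there, against 18 in replicate 2 and 20.0 in replicate 3, and mt-Ts1, a serine gene that overlaps the end of mt-Co1 by 3 bases, had 74, 5 and 4. mt-Te, the glutamate gene beside mt-Nd6, had 41, 8 and 19, and mt-Tn, an asparagine gene, had 28, 21 and 15. mt-Ty, mt-Ta and mt-Tq had at most 10. On the plus strand, mt-Tm, mt-Tw and mt-Th had 1 to 4 counts in every library, and mt-Tl1, mt-Ti and mt-Tl2 had at most 7 and none in at least 1 library. The 8 without counts were mt-Tf, mt-Tv, mt-Td, mt-Tk, mt-Tg, mt-Tr, mt-Ts2 and mt-Tt. Minus-strand transfer RNA genes lie opposite the plus-strand precursor. Without a stated strand setting, the strand from which these counts came cannot be told apart.

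**Figure D3:**
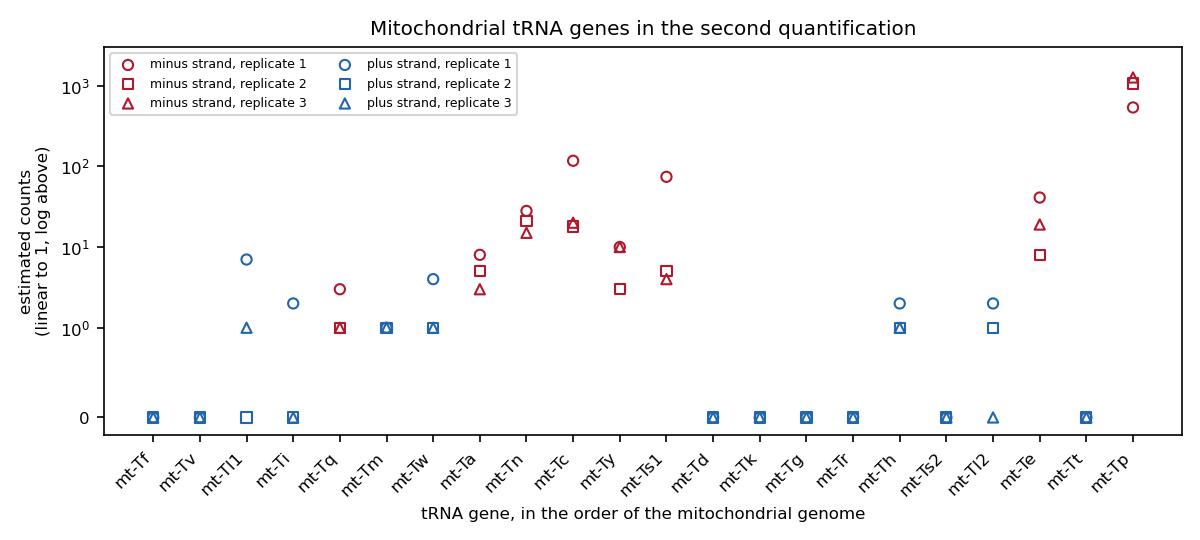
Estimated counts of the 22 transfer RNA genes in the second quantification, in genome order, with minus-strand and plus-strand genes in separate colours and 1 symbol for each replicate (linear to 1, log above). mt-Tp is highest with 535 to 1258 counts, and no plus-strand gene exceeds 7.

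The gene tables give, for each count, a posterior standard deviation, the uncertainty of assigning reads among similar transcripts. It was set against the square root of the count, the size of Poisson counting error. Of the 15 members averaging at least 10 expected counts, 5 had a posterior standard deviation over 2 times that size in 3 of 3 libraries, against 0.750% of the 12404 genes tested. These were mt-Co2, mt-Co3, mt-Atp6, mt-Nd3 and mt-Nd4l, the 5 genes with over 98% of windows in nuclear transcripts. For mt-Co2 the ratio was 19.0, 51.8 and 73.3 in replicates 1, 2 and 3, for mt-Atp6 it was 24.1, 29.7 and 47.9, and for mt-Co3 it was 56.7, 2372 and 194. The 2372 divides by the root of an expected count of 3.58, where the posterior mean count was 30053. The posterior standard deviations of mt-Co3 themselves were 2830, 4487 and 4578. In all 3 of these genes the expected count was below the posterior mean count in every library, which raises the ratio. For mt-Nd3 it lay between 4.91 and 5.88, and for mt-Nd4l between 4.40 and 4.45. mt-Co1 had 0.365 to 0.414 and mt-Nd4 at most 0.0307. The remaining 8 members were near 0. Among the 11 nuclear copies, 7 reached the count minimum and 4 of those passed the same threshold, namely Gm10222, Gm10925, Gm28437 and Gm28661.

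**Figure D4:**
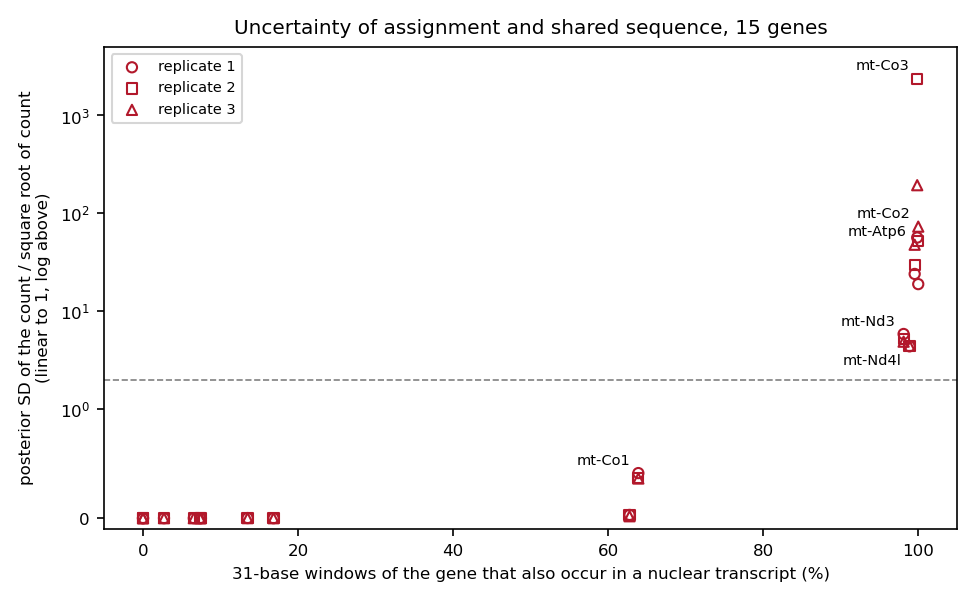
Posterior standard deviation of the expected count divided by the square root of the count, plotted against the share of 31-base windows that also occur in a nuclear transcript, for 15 members in 3 libraries. The dashed line is at 2. The highest point, mt-Co3 in replicate 2, rests on an expected count of 3.58. The 5 genes above it lie beyond 98% on the horizontal axis, while mt-Co1 and mt-Nd4, at 63.9% and 62.8%, lie below it.

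The quantifications were compared gene by gene on log2(TPM + 0.1), with a call where 3 of 3 libraries differed by over 1.5-fold in the same direction. Genes with an effective length of 0 in the gene tables, all transfer RNA members among them, were left out. Over the 14782 genes tested, the median log2 ratio of the gene tables to the second quantification was 0.30, 0.04 and 0.18 in replicates 1, 2 and 3, which is the shift of all genes. Of the 15 protein and ribosomal RNA genes, 1 was called higher in the gene tables, against 2.10% of all genes tested, and 4 were called lower, against 11.5%. The member called higher was mt-Atp8, with a log2 ratio of 2.14 ± 0.16 (SD, n = 3). Those called lower were mt-Co2 (-1.66 ± 0.80), mt-Co3 (-6.68 ± 4.81), mt-Atp6 (-4.21 ± 0.92) and mt-Nd3 (-1.34 ± 0.42). For mt-Nd4l the ratio was -0.93 ± 0.35, with replicate 1 at -0.54, short of the threshold.

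With each gene summed with its nuclear copies, on CPM, the mean log2 ratio of the gene tables to the second quantification lay between -0.15 for mt-Nd6 and 0.11 for mt-Co2 over the 15 genes, and all were short of the threshold. On TPM with copies summed, 3 of the 15 were called higher, namely mt-Atp8, mt-Nd3 (0.82 ± 0.10) and mt-Nd4l (0.87 ± 0.09), the 3 shortest of the protein genes. No share over all genes is given with copies summed, so this count is not read as a result about the members. On CPM, the quantifications thus held close counts for each gene and its copies together, and for mt-Co2, mt-Co3, mt-Atp6, mt-Nd3 and mt-Nd4l they divided them differently.

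Variation between libraries was read from CPM after TMM scaling, a correction for library composition, as the highest over the lowest library. Of 15 members, 7 exceeded 1.5-fold, against 37.9% of all 12404 genes and 18.0% of the 4184 genes that averaged 1000 counts or more. The median over the 15 members was 1.38, against 1.37 over all genes tested. The count of 7 was 3 without replicate 3, a setting for which no share over all genes is given. The largest ratios were 993 for mt-Co3, 27.6 for mt-Co2 and 3.61 for mt-Atp6. Summed with their copies these ratios were 1.61, 1.17 and 1.12. After summing, 4 of 15 members exceeded 1.5-fold, and no share over all genes is given for this setting. The ratio of 993 rests on an expected count of 3.58 for mt-Co3 in replicate 2. Posterior mean counts of mt-Co3 were 15350, 30053 and 29718 in replicates 1, 2 and 3, and no variation is given on posterior means. In the second quantification 9 of 20 members exceeded 1.5-fold, against 43.1% of all 14604 genes. The 20 add the transfer RNA genes mt-Tn, mt-Tc, mt-Ts1, mt-Te and mt-Tp, which all exceeded it. Among the 15 genes above, those over it were mt-Co2, mt-Co3, mt-Nd2 and mt-Rnr1, the last at 1.50038.

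After summing, mt-Nd3 with its copy varied most, with 77.1, 274 and 146 CPM in replicates 1, 2 and 3, a ratio of 3.55 in the gene tables and 3.78 in the second quantification. Most of that sum lay on Gm28438 in the gene tables, with 61.9, 262 and 136 CPM. mt-Nd3 alone had 15.2, 12.1 and 9.67 CPM there, a ratio of 1.57, and a ratio of 1.45 in the second quantification. The other sums over 1.5-fold in the gene tables were mt-Nd2 with 339, 573 and 379 (a ratio of 1.69), mt-Co3 with 1650.5, 2661 and 2063 (1.61) and mt-Rnr1 with 453, 571 and 686 (1.52). Of the 15 members summed with copies, 5 were highest in replicate 1, 7 in replicate 2 and 3 in replicate 3, while gene by gene the numbers were 8, 4 and 3. No share over all genes is given for these numbers, so they are not read as a result about the members. The summed neutrophil markers were highest in replicate 2, at 419.6 TPM against 22.9 and 21.4 TPM, and their part in the values of the members was not tested. mt-Cytb, without a copy, had a ratio of 1.14, and mt-Nd5 had 1.18.

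With each gene summed with its copies, the highest protein gene of the gene tables was mt-Atp8 at 23329.6 ± 6629 TPM, followed by mt-Co1 at 8542 ± 811, mt-Co2 at 7979 ± 474 and mt-Co3 at 6344 ± 1851 TPM (SD, n = 3 each). The middle of the order held mt-Atp6 at 5636 ± 665, mt-Nd3 at 2749.8 ± 1917, mt-Nd4l at 2592 ± 638 and mt-Nd6 at 2209 ± 180.2 TPM. The lowest were mt-Nd1 at 1895 ± 422, mt-Cytb at 1828 ± 95.7, mt-Nd4 at 1384 ± 224, mt-Nd5 at 1059.6 ± 121 and mt-Nd2 at 855 ± 288 TPM. On this scale the subunits of complexes IV and V headed the order and those of complexes I and III followed. As CPM per 1000 annotated bases, with copies summed, mt-Atp8 was below mt-Cytb in replicate 1, at 894 against 962, and below mt-Nd1 in replicate 2, at 988 against 1142. The other subunits of complexes IV and V remained above those of complexes I and III in every library on that scale. Within complex I, mt-Nd3 then stood at 213, 837 and 409 and mt-Nd4l at 326, 404 and 284. Both were below mt-Cytb, at 962, 957 and 856, in every library, although their mean TPM was above that of mt-Cytb. Effective lengths in the gene tables were 107, 87.6 and 91.3 bases for mt-Nd3 and 68, 52.4 and 56.0 for mt-Nd4l. Of the 12 pairs of neighbours in the TPM order, 3 were apart: mt-Atp8 over mt-Co1, mt-Cytb over mt-Nd4 and mt-Nd4 over mt-Nd5. In the second quantification with copies summed, mt-Co1 came first at 6976 ± 671 TPM and mt-Co2 next at 5910.4 ± 718, a pair that was apart, and mt-Atp6 over mt-Nd6 was the other pair apart.

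The subunits of complex IV stood above those of complex I in both quantifications once copies were summed. The difference of their medians on the log2(TPM + 0.1) scale was 2.14 ± 0.29 in the gene tables and 2.15 ± 0.26 in the second quantification (SD, n = 3 each), both apart. Taken gene by gene, the same difference was -3.12 ± 2.51 in the gene tables, with -0.23, -4.35 and -4.78 in replicates 1, 2 and 3, and 0.54 ± 0.43 in the second quantification, neither apart. Without replicate 1 the gene-table difference was -4.56. It exceeded 2 SD over replicates 2 and 3 alone, where the rule of 3 of 3 libraries cannot be met.

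The nuclear-encoded subunits of the same complexes gave lower values. All 71 of those matched in the annotation were at or above 1 TPM in every library, with a median of 103 TPM. In complex I they ran from Ndufa1 at 285 ± 38.1 TPM to Ndufb4 at 12.9 ± 2.84 TPM, and in complex III from Uqcrh at 411 ± 56.5 TPM to Cyc1, cytochrome c1, at 40.1 ± 9.91 TPM. In complex IV they ran from Cox6b1 at 569 ± 166 TPM to Cox7b at 85.3 ± 7.53 TPM. In complex V they ran from Atp5b, the catalytic beta subunit, at 496 ± 85.8 TPM to Atp5g1, a copy of the c-ring subunit gene, at 52.7 ± 9.54 TPM (SD, n = 3 each). Of the 71, 3 exceeded 1.5-fold between libraries, namely Ndufa10, Ndufv1 and Atp5g1. The share was 37.9% of all genes tested, whose median level was 8.60 TPM, and 18.0% of those that averaged 1000 counts or more.

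With copies summed, the median mitochondrial subunit exceeded the median nuclear subunit by 4.74 ± 0.16 in complex I, 3.76 ± 0.30 in complex III, 4.55 ± 0.29 in complex IV and 5.89 ± 0.18 in complex V, on the log2(TPM + 0.1) scale of the gene tables (SD, n = 3 each). All were apart. Gene by gene, complex I gave 3.96 ± 0.15 and complex V 3.33 ± 0.49, while complex IV gave -1.49 ± 2.71, with 1.63 in replicate 1, -2.87 in replicate 2 and -3.23 in replicate 3, and was not apart. In the second quantification, gene by gene, complex I gave 4.43 ± 0.26, complex IV 2.69 ± 0.72 and complex V 4.63 ± 0.09, all apart. In the second quantification with copies summed, the values were 4.71 ± 0.23, 4.02 ± 0.12, 4.58 ± 0.23 and 4.90 ± 0.01 in complexes I, III, IV and V. The complex V median rests on 2 mitochondrial genes, of which mt-Atp8 had effective lengths of 17.6, 10.3 and 12.2 bases in the gene tables. Libraries held polyadenylated RNA and tail lengths were not measured, so these are differences between transcripts captured, not between transcripts per cell.

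**Figure D5:**
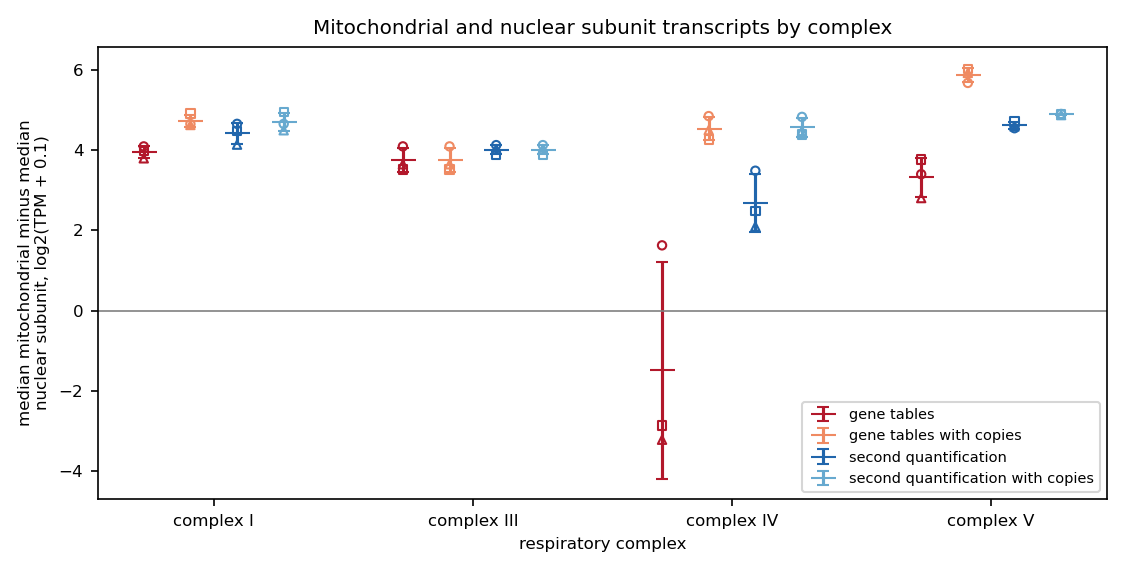
Median mitochondrial minus median nuclear subunit on the log2(TPM + 0.1) scale for complexes I, III, IV and V, in both quantifications and with and without summing nuclear copies. Symbols are libraries, horizontal marks and error bars the mean and SD (n = 3). Complex IV in the gene tables spans -3.23 to 1.63, while with copies summed it is 4.55 ± 0.29.

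Nuclear genes for mitochondrial DNA maintenance and gene expression were mostly low. Of 43 listed, 42 were matched, 38 reached 1 TPM in all libraries, and the median was 4.56 TPM. For DNA maintenance, Ssbp1, the single-stranded DNA binding protein, stood at 24.97 ± 1.96 TPM and Tfam, which packages the mitochondrial genome and starts its transcription, at 12.9 ± 4.85 TPM. The helicase Twnk was lowest at 0.703 ± 0.0351 TPM. For transcription, the elongation factor Tefm stood at 9.13 ± 0.83 TPM and the initiation factor Tfb2m at 2.65 ± 0.74 TPM, while Mterf2 was at 0.12 ± 0.151 TPM (SD, n = 3 each).

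Processing enzymes cut the transfer RNAs from the precursor. Among them Hsd17b10, a subunit of mitochondrial RNase P, stood at 28.1 ± 3.72 TPM, Elac2, which cuts at the 3′ end of transfer RNAs, at 4.95 ± 1.36 TPM and Trmt10c, another RNase P subunit, at 2.75 ± 0.25 TPM. For stability and tailing, Slirp, which binds mitochondrial messenger RNAs with Lrpprc, was highest of the whole list at 111 ± 11.6 TPM, followed by Fastk at 17.6 ± 0.856 TPM, and Fastkd1 was lowest at 2.34 ± 0.92 TPM. For decay, the polynucleotide phosphorylase Pnpt1 stood at 49.4 ± 6.97 TPM, the oligoribonuclease Rexo2 at 45.4 ± 9.26 TPM and the helicase Supv3l1 at 3.24 ± 0.64 TPM. For translation, the elongation factors Tufm and Gfm1 stood at 22.4 ± 5.94 and 17.7 ± 5.38 TPM and the rRNA methyltransferase Mrm3 at 0.633 ± 0.186 TPM, and the insertase Oxa1l stood at 10.7 ± 0.873 TPM. Of the 40 genes averaging 10 counts or more, 11 exceeded 1.5-fold between libraries, against 37.9% of all genes tested, with a median ratio of 1.35.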

How the data were processed

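The authors deposited, for each of 3 libraries, a gene table with expected counts, TPM, FPKM, posterior mean counts and posterior standard deviations, and a second transcript quantification with estimated counts and TPM, made on mm10 with GENCODE M21 per the labels and the deposited readme. The posterior values are scores of the quantification model, as deposited by the authors. No source used here gives programs, versions or strand settings. Transcripts of the second quantification were summed per gene, and spike-in and other entries that name no gene, 0.0682 to 0.127% of expected counts and 0.0687 to 0.113% of estimated counts, stayed out of all totals. Expected counts were rounded to whole numbers for TMM scaling (edgeR 4.0.16) and for DESeq2 1.42.0 size factors, the alternative. TPM with copies summed is the summed count divided by the effective length of the mitochondrial gene. Nuclear copies were found with BLAST 2.17.0 in GENCODE M21 transcripts. With 1 group no test between groups was possible, and an exact sign permutation over 3 libraries cannot go below a two-sided p of 0.25, so none was used. Members and lists were chosen with earlier results of these data known. All members were named, with all nuclear copies and, per list, the highest and lowest nuclear genes. The counting of genes varying between libraries and differing between quantifications was tested on simulated data. Software was Python 3.11.15, pandas 2.3.3, numpy 2.4.6, scipy 1.17.1 and matplotlib 3.10.9, and R 4.3.3. Alternatives covered pseudocounts, scaling, count minimums, thresholds, summing with copies and leaving out each library. Depth was 26589042 to 48356527 expected counts per library, and with 3 libraries an SD is itself imprecise.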

Additional observations from a re-analysis of the deposited data

How the results depend on the processing

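Of 90 alternative values, 66 kept their direction and side of the threshold, or moved by less than the limit set for counts and shares. The share of members, 1.41% of expected counts, was 4.51% of TPM, 1.57% of the second quantification's counts, 1.24% without ribosomal RNA genes, and 2.05% and 1.98% with nuclear copies added in the gene tables and in the second quantification. Leaving out each library gave 1.36 to 1.47%. Complex IV minus complex I, -3.12 in the gene tables, was 0.92 by posterior mean TPM, 0.54 in the second quantification, and 2.14 and 2.15 with copies summed in the gene tables and in the second quantification. Leaving out each library gave -4.56 to -2.29. mt-Nd4l minus mt-Nd4, -0.91, was 0.33 in the second quantification with or without copies and 0.89 with copies summed in the gene tables. mt-Nd6 minus the plus-strand median, 1.16, was -0.27 and 0.22 with copies summed in the gene tables and in the second quantification and 0.48 per annotated length. mt-Atp8 minus mt-Atp6, 7.13, was 0.23 with copies summed in the second quantification. The causes of these changes were not tested. mt-Rnr2 minus mt-Rnr1 was apart under all alternatives run, where with a library left out the rule was applied to the remaining libraries only. Members varying over 1.5-fold numbered 7, 4 at a 2-fold threshold, 4 with copies summed and 3 to 6 with a library left out. No share over all genes is given for these alternatives, so the smaller numbers are not read as a result about the members. Members differing between quantifications numbered 10 of 20, where 5 of the 10 were transfer RNA genes that cannot hold counts in the gene tables. Among genes with an effective length there, the number was 5, and 3 with copies summed. On CPM with copies summed, the number was 5, all of them these transfer RNA genes. Shares over all genes, 2.10% higher and 11.5% lower, are given only for genes with an effective length in the gene tables and without summing. Members with a high posterior standard deviation numbered 5, and 3 at a threshold of 5 times, for which no share over all genes is given. Summing with copies in the second quantification or on CPM, the scale per annotated length, the limit to genes with an effective length and the library left out for the posterior standard deviation were alternatives chosen after seeing the data. No paired analysis was possible because the libraries form 1 group. For mt-Co2, mt-Co3, mt-Atp6, mt-Nd3 and mt-Nd4l, over 98% of short windows also occur in nuclear transcripts, which depth does not change.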
